A study of Homo sapiens with 3 samples.

Results

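The liver urea cycle and amino acid enzymes are 9 genes whose products remove ammonia and break down tyrosine and tryptophan in hepatocytes, the main cell type of the liver. They are CPS1, OTC, ASS1, ASL and ARG1 of the urea cycle, TAT, HPD and FAH of tyrosine breakdown, and TDO2 of tryptophan breakdown. They were chosen by gene symbol, as hepatocyte enzymes that help to tell liver from yolk sac endoderm. All 9 were found among the 27307 genes listed. RNA-seq came from 3 libraries of teratoma, a tumour of mixed differentiated tissues, grown from H1 cells, an established human embryonic stem cell line. Cells kept on Matrigel in E8 medium were injected under the skin of immunodeficient SCID-beige mice and the tumours were frozen after 3 to 4 weeks. The 3 libraries form 1 group with no control, are called teratomas 1, 2 and 3 by replicate number, and all derive from the same unmodified line. Whether they are separate tumours is not stated. Differences of tumour, of tissue sampled and of technical handling therefore cannot be told apart in the spread between them. Tumours grown in a mouse can hold host cells, whose part in the values was not tested.

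The urea cycle turns toxic ammonia into urea. CPS1 and OTC carry out its first steps in mitochondria, and ASS1, ASL and ARG1 complete it in the cytosol. The whole cycle runs in hepatocytes, while small intestine shares CPS1 and OTC, and ASS1 and ASL are made in many tissues for arginine synthesis. The yolk sac makes many of the same secreted plasma proteins as fetal liver, such as AFP and apolipoproteins, which is why intracellular enzymes of hepatocytes are of use beside them.

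In units of 1000000 reads, the libraries held 46.2, 45.8 and 43.6 in teratomas 1, 2 and 3, of which 34.3, 33.8 and 33.0 were counted on the entries that represent genes. Levels are given in RPKM, which divides reads by transcript length in kilobases and by the library total in units of 1000000, so that genes can be compared. A gene at or above 1 RPKM in all 3 libraries is called detected. Differences between libraries are on the log2(RPKM + 1) scale, which compresses those of genes under 1 RPKM, so read counts and plain folds are given too. Intervals are 95% exact counting intervals and cover counting error only.

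Teratoma 2 had the highest value of each enzyme, though not always beyond counting error. Their median was 1.26, 2.91 and 0.31 RPKM in teratomas 1, 2 and 3, against 1.97, 2.08 and 1.74 RPKM over all genes, so it was above that of all genes in teratoma 2 and below it in the others. Of the 9, 4 were detected, ASL, CPS1, FAH and ASS1, a share near the 52.7% of all genes. HPD and TDO2 passed 1 RPKM in some libraries, and OTC, ARG1 and TAT were under 1 RPKM in all 3. All 9 were highest in teratoma 2, where 25.3% of genes with a read had their highest value. The interval of its fold included no difference for ASS1 and FAH over teratoma 1, and for TAT over teratoma 3. Teratoma 3 was the lowest library for 8 of the 9, against 44.2% of genes with a read, and teratoma 1 was the lowest for TAT. For ARG1, HPD, OTC and TAT the counting intervals of teratomas 1 and 3 overlapped. With median-of-ratios scaling or rescaling to 1000000 per library, teratoma 3 was lowest for 7. In bulk RNA, fewer cells of a type and less transcript per cell cannot be told apart.

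**Figure D1:**
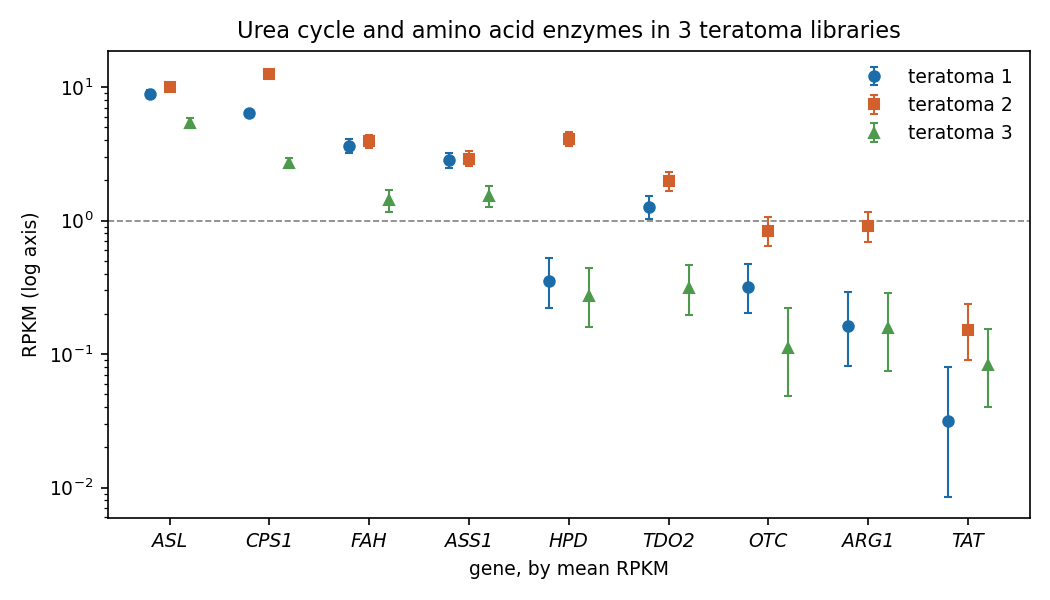
RPKM of the 9 enzymes on a log axis, by mean level, in each teratoma library, with 95% counting intervals as bars and 1 RPKM as a dashed line. Teratoma 2 (squares) was highest for every gene, and OTC, ARG1 and TAT lay under 1 RPKM in all 3 libraries.

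Among the mitochondrial urea cycle enzymes, CPS1, which fixes ammonia into carbamoyl phosphate, stood at 6.36, 12.5 and 2.71 RPKM in teratomas 1, 2 and 3, on 1406, 2735 and 565 reads. The 3 values lay apart, with teratoma 2 4.61-fold above teratoma 3 (4.21 to 5.05) and 1.96-fold above teratoma 1 (1.84 to 2.1). OTC, which joins carbamoyl phosphate to ornithine, stood at 0.315, 0.835 and 0.111 RPKM on 24, 63 and 8 reads. It was thus far scarcer than CPS1 in each library although both act in the same compartment. Its highest and lowest libraries, teratomas 2 and 3, differed 7.5-fold, with an interval of 3.58 to 18.1.

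Of the cytosolic enzymes, ASL and ASS1 were detected and ARG1 was not. ASL, which releases arginine, had the highest mean of the 9, at 8.92, 9.98 and 5.39 RPKM on 818, 906 and 466 reads. ASS1, which makes argininosuccinate, stood at 2.83, 2.91 and 1.52 RPKM on 234, 238 and 118 reads. Teratomas 1 and 2 were close for both, and teratoma 3 was lower, with teratoma 2 1.85-fold above it for ASL (1.65 to 2.07) and 1.92-fold for ASS1 (1.53 to 2.41). ASL was 1.12-fold higher in teratoma 2 than in teratoma 1 (1.02 to 1.23) and ASS1 1.03-fold (0.853 to 1.23), an interval that includes no difference. ASS1 has processed pseudogenes in the human genome, and how reads shared with them were placed is not given in the sources used here. ARG1, the liver arginase that releases urea, stood at 0.162, 0.905 and 0.156 RPKM on 11, 61 and 10 reads. Teratoma 2 stood above the other libraries, which did not differ from each other beyond counting error, and was 5.81-fold above teratoma 3 (2.95 to 12.7).

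The tyrosine enzymes differed widely in level. TAT, the aminotransferase that starts the pathway and a classical marker of mature hepatocytes, rested on 4, 19 and 10 reads, or 0.0314, 0.15 and 0.0832 RPKM. Its level was the lowest of the 9 in each library, where 3 reads would give 0.0235, 0.0238 and 0.025 RPKM. In teratoma 3 its counting interval (0.0399 to 0.153) overlapped those of OTC and ARG1. TAT was 1.81-fold higher in teratoma 2 than in teratoma 3 (0.8 to 4.35), an interval that includes no difference. HPD, the dioxygenase that follows, stood at 0.35, 4.11 and 0.274 RPKM on 23, 268 and 17 reads. Teratoma 2 alone was above 1 RPKM, 15-fold over teratoma 3 (9.2 to 26.1) and 11.8-fold over teratoma 1 (7.67 to 18.9). FAH, the last enzyme, which cleaves fumarylacetoacetate, stood at 3.62, 3.94 and 1.42 RPKM on 301, 324 and 111 reads. Its values in teratomas 1 and 2 were close (1.09-fold, 0.926 to 1.28), and teratoma 3 was lower. TDO2, which opens the ring of tryptophan in liver, stood at 1.26, 1.96 and 0.31 RPKM on 99, 153 and 23 reads, 6.33-fold higher in teratoma 2 than in teratoma 3 (4.07 to 10.3).

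HPD was the 1 enzyme of the 9 whose highest and lowest libraries lay 2 or more apart on the log2 scale (2.00, rounded), against 1.52% of all genes. This value lay at the threshold and came to 0.08 without teratoma 2, 1.92 without teratoma 3 and 1.98 with median-of-ratios scaling. CPS1 lay just under the limit at 1.86, and the others differed by 0.16 to 1.18. Counting intervals of the highest and lowest library lay apart for 9 of 9 enzymes, against 66.2% of genes with a read. They also lay above 1 for the fold of teratoma 2 over teratoma 1 in 7 of 9, with ASS1 and FAH as the exceptions. For this fold the share over all genes was not computed, so the count cannot be set against it. These intervals compare libraries and not conditions, and the share passing depends on read depth.

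By mean, the order was ASL (8.1 ± 2.4 RPKM), CPS1 (7.18 ± 4.94), FAH (2.99 ± 1.37), ASS1 (2.42 ± 0.784), HPD (1.58 ± 2.19), TDO2 (1.18 ± 0.829), OTC (0.42 ± 0.373), ARG1 (0.407 ± 0.431) and TAT (0.0883 ± 0.0597; SD, n = 3). Of the 8 neighbouring pairs, 3 kept their order in all libraries, CPS1 over FAH, TDO2 over OTC and ARG1 over TAT, and in 1 pair, ARG1 and TAT, the ranges did not overlap. That gap, from 0.156 RPKM on 10 reads (ARG1, teratoma 3) to 0.15 on 19 (TAT, teratoma 2), lay within counting error. In teratoma 2 CPS1 exceeded ASL, and HPD exceeded ASS1, FAH and TDO2, which it did not do in the other libraries. Over all 36 pairs, 30 kept their order in every library and 20 had ranges that did not overlap. No neighbouring pair passed the exact two-sided sign-flip permutation test, whose smallest p with 3 libraries is 0.25. Benjamini-Hochberg adjusted values over the 8 pairs were 0.667 or 1.

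Several deposited entries per gene added detail for CPS1 and HPD. The CPS1 entry used above is the shortest of 3, with 4782 bases, and starts inside the gene. The entry of 5725 bases collected 204, 395 and 94 reads more than it in teratomas 1, 2 and 3 over 943 further bases. At least that many reads therefore lay in sequence absent from the short entry, a density of 73.6%, 73.2% and 84.4% of the short entry's own RPKM. For HPD the longer entry has 476 further bases but collected 23, 267 and 17 reads, against 23, 268 and 17 for the shorter one. The further bases thus added no reads to the total. CPS1-IT1, a transcript listed from within CPS1, had 0 reads in all 3 libraries. All 9 entries used have 1 genome placement in the tables.

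Promoter sequence, which the choice of the enzymes did not use, differed among them. RefSeq windows before the start sites (GRCh38.p14) matched 8 of the 9 genes with 13 windows, and TAT had none in the table. In the 250 bases before the start, ASL held 22 CpG sites at 74% GC, ASS1 21 and 24 in its windows, and FAH 16 and 19, against a median of 11 CpG sites and 58% GC over 35116 windows. CPS1 held 1, 3 and 3, OTC 2, ARG1 1 and TDO2 0 CpG sites, at 33.6% to 48.4% GC. The HPD window at the start of the shorter entry held 5 at 64.8% GC, and a second, upstream HPD window held 29 at 68.8% GC. ASL, ASS1 and FAH were detected in all libraries, as was CPS1, while OTC, ARG1, TDO2 and HPD were not. CPS1 was thus detected with few CpG sites in its windows, unlike ASL, ASS1 and FAH. The start of a further CPS1 entry lay 36817 bases from the nearest window, so its CpG sites were not counted. The upstream HPD window, which held the most, was not the nearest to the start of either HPD entry. Whether CpG sites go with detection was not tested. Shown are 1 window each of ASL, CPS1 (at the start of the entry used above), OTC, ARG1 and TDO2 and both of HPD. They run 5′ to 3′ on the strand of the gene, with each CpG in capitals.
ASL (chr7:66075569-66075818, + strand): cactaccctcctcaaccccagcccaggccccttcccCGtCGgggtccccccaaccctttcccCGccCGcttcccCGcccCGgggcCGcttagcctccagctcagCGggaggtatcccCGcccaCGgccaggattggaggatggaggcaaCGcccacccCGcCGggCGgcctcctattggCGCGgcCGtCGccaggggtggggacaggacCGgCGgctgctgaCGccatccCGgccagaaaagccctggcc
CPS1 (chr2:210593105-210593354, + strand): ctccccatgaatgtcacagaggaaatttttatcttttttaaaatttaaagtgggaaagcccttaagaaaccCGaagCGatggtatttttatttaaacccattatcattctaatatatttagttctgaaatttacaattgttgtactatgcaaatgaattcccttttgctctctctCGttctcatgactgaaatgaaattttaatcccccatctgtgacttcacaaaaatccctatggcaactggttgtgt
HPD, upstream window (chr12:121888612-121888861, - strand): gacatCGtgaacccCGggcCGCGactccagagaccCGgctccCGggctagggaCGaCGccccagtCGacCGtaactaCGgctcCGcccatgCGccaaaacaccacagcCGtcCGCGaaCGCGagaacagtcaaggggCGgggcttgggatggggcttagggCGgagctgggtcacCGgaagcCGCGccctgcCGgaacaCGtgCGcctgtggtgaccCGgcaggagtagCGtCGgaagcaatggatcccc
HPD, shorter entry (chr12:121858860-121859109, - strand): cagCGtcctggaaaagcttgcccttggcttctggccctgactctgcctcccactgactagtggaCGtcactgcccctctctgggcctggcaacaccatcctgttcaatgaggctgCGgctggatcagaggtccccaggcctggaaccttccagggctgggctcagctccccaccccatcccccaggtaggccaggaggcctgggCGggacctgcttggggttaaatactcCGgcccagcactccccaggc
OTC (chrX:38352354-38352603, + strand): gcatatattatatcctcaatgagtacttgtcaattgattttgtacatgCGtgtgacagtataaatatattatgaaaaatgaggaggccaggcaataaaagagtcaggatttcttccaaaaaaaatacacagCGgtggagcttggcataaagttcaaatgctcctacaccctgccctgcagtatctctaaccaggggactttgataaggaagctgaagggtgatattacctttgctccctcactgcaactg
ARG1 (chr6:131572976-131573225, + strand): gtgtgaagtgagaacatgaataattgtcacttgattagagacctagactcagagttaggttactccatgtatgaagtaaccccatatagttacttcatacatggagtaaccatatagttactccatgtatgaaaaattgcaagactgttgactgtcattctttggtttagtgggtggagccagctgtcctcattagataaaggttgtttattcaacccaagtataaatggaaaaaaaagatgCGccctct
TDO2 (chr4:155903446-155903695, + strand): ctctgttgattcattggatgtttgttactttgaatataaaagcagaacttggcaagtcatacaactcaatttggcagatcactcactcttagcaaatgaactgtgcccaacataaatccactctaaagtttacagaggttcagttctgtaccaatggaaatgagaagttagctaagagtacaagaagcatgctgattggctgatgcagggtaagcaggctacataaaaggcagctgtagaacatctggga

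Short motifs of liver factors and of the core promoter were looked for on both strands of the same 250 bases, with letters chosen after the sequences were seen. The TATA box letters TATAAA were found in 3 of 13 windows, against 10.7% of all windows. The match began at position -29 from the start in ARG1, at -192 in OTC and at -216 in TDO2. The letters CAAAGTCC, part of sites bound by HNF4, were found in OTC alone, beginning at -56, against 1.02% of all windows. The letters GTTAAT (part of HNF1 sites), TTGCNNAA (C/EBP) and TGTTTAC (FOXA) were in none of the 13 windows, against 6.23%, 9.05% and 2.98% of all windows. No 2 matches overlapped, and a match describes letters, not binding.

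Partners of the urea cycle were divided between the libraries, with 3 of 9 highest in teratoma 1, 4 in teratoma 2 and 2 in teratoma 3. In that list 5 were detected and 2 were under 1 RPKM in all libraries. ARG2, the mitochondrial arginase found outside the liver, stood at 7.66, 8.61 and 14.7 RPKM and was highest in teratoma 3. It exceeded ARG1 in each library. The ornithine carrier SLC25A15 hardly varied, at 7.6, 8.34 and 8.12 RPKM, and the aspartate-glutamate carrier SLC25A13 stood at 9.38, 9.24 and 5.65. NAGS, which makes the obligate activator of CPS1, stood at 1.11, 0.906 and 1.05 RPKM. The related carrier SLC25A2 stood at 0.753, 0.882 and 0.767.

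GLUD1 and GLUL had the highest means of this list, and GLS2 and CA5A the lowest. GLUD1, glutamate dehydrogenase, stood at 25.8, 48.4 and 28.2 RPKM, with teratoma 2 highest. GLUL, glutamine synthetase, which many tissues make, stood at 25.4, 22 and 16.2. The liver glutaminase GLS2 was low, at 0.471, 0.57 and 1.17, and highest in teratoma 3. CA5A, the mitochondrial carbonic anhydrase of liver that supplies bicarbonate to CPS1, rested on 1, 19 and 5 reads. Its values of 0.0199, 0.383 and 0.106 RPKM were highest in teratoma 2, 19.2-fold over teratoma 1 with a counting interval of 3.05 to 797.

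**Figure D2:**
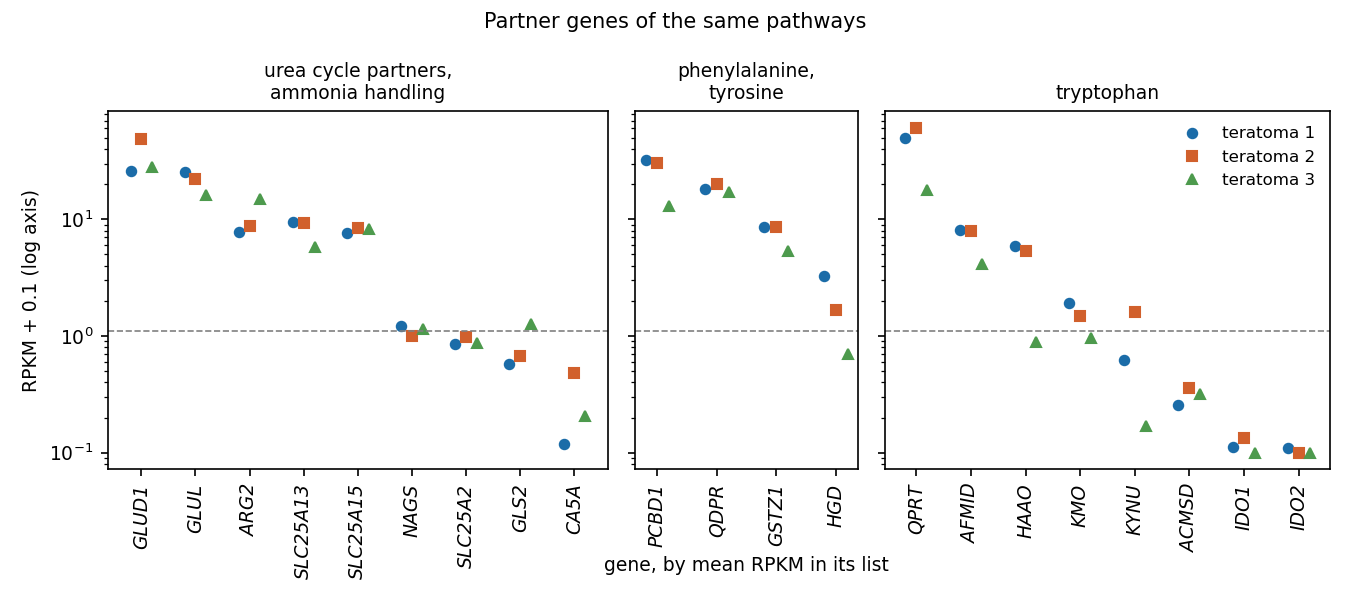
RPKM plus 0.1 on a log axis of the partner genes in 3 pathways, by mean level within each list, with symbols for the 3 teratoma libraries and a dashed line at 1 RPKM. GLUD1, PCBD1 and QPRT led their lists, and teratoma 3 was lowest for each phenylalanine and tyrosine gene shown.

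The rest of phenylalanine and tyrosine breakdown was measured in 5 genes, of which 3 were detected and all 5 were lowest in teratoma 3. HGD, which stands between HPD and FAH in the pathway, ran at 3.16, 1.56 and 0.605 RPKM and was highest in teratoma 1. HPD and HGD were therefore highest in different libraries. GSTZ1, the isomerase before FAH, stood at 8.47, 8.49 and 5.27. The cofactor recycling genes PCBD1 and QDPR, which other tissues use too, stood at 32, 30.2 and 12.9 RPKM and at 17.9, 20 and 17.

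In the rest of tryptophan breakdown 2 of 8 genes were detected and 3 were under 1 RPKM in all libraries. QPRT, which leads from this pathway to NAD, stood highest at 49.7, 60.7 and 17.8 RPKM, and the formamidase AFMID at 7.96, 7.91 and 4.04. HAAO, a dioxygenase of the middle steps, stood at 5.76, 5.2 and 0.786, with teratoma 3 far below the others. KMO stood at 1.81, 1.4 and 0.862 and KYNU, kynureninase, at 0.517, 1.5 and 0.0686 RPKM on 40, 115 and 5 reads. ACMSD stood at 0.156, 0.262 and 0.22. IDO1 and IDO2 also open the ring of tryptophan. They had 1, 3 and 0 reads and 1, 0 and 0 reads, below the levels of TDO2 in each library. At the length of IDO1, 3 reads correspond to 0.0336 RPKM in teratoma 1, and at that of IDO2 to 0.0283 RPKM.

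Among 32 other amino acid enzymes 20 were detected, and 5, 17 and 10 were highest in teratomas 1, 2 and 3. The highest were AHCY of the methyl cycle at 74.4, 76.3 and 38 RPKM, CDO1, cysteine dioxygenase, at 26.5, 25.4 and 44.3, and BCKDHA of branched-chain breakdown at 31.2, 25.5 and 25.6. The largest difference between libraries was that of PRODH2, the hydroxyproline dehydrogenase of liver and kidney, at 1.29, 8.55 and 0.615 RPKM (2.56 on the log2 scale). FTCD, the last enzyme of histidine breakdown, named after its values were seen, was the other gene of the list to differ by 2 or more, at 2.86, 11 and 1.42 RPKM. Also named after its values were seen, MAT1A, the liver form of methionine adenosyltransferase, stood at 0.318, 2.36 and 0.141. Over the 4 pathway lists together, 30 of 54 genes were detected, a share near the 52.7% of all genes. Of these 54, 28 were highest in teratoma 2, against 25.3% of genes with a read. On the log2 scale 2 differed by 2 or more, against 1.52% of all genes.

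Genes of mature hepatocyte metabolism were mostly below detection. Of 20, 1 was detected and 18 were under 1 RPKM in all libraries. The detected gene was FBP1, a gluconeogenic enzyme, at 4.79, 7.03 and 2.08 RPKM. SULT2A1, the sulphotransferase of fetal liver and adrenal, stood at 1.02, 3.54 and 0.808. CYP1A2 and HAMP had 0 reads in all libraries. G6PC, which releases glucose in liver, had 2, 0 and 0 reads and CYP3A4, the main adult P450, had 4, 2 and 8. SLC10A1, the bile acid uptake transporter of hepatocytes, had 2, 45 and 1 reads, most of them in teratoma 2. The list was divided, however. Of its 18 genes with a read, 5, 9 and 4 were highest in teratomas 1, 2 and 3. CYP1A2, HAMP, G6PC, CYP3A4 and SLC10A1 were picked out after their values were seen.

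Plasma proteins of liver and yolk sac stood far above the enzymes. Against the enzyme medians given above, the median of 16 plasma proteins was 25.7, 147 and 13.6 RPKM in teratomas 1, 2 and 3. On the log2 scale the medians differed by -3.56, -5.23 and -3.48 (enzymes minus plasma proteins, mean -4.09 ± 0.99). AFP, the fetal plasma protein, stood at 452, 1889 and 159 RPKM and ALB, albumin, at 11.4, 62.1 and 4.07, so AFP was 39.5, 30.4 and 39.1 times ALB. APOA1, the main protein of HDL, stood at 371, 1205 and 109 RPKM and the adhesion protein VTN at 88.4, 267 and 18.4. AHSG, fetuin-A, varied most of the 16, at 24.9, 266 and 12.3 RPKM. The highest library exceeded the lowest by a median of 4.79-fold for the enzymes, against 12.0-fold for the plasma proteins and 1.41-fold for all detected genes. On the log2(RPKM + 1) scale these medians were 0.78, 3.44 and 0.42, and with a pseudocount of 0.01, which compresses low genes less, 2.20, 3.58 and 0.50. Of the 16 plasma proteins, 15 differed by 2 or more with a pseudocount of 1. All 16 were highest in teratoma 2 and lowest in teratoma 3. Of the 9 enzymes, HPD alone had a fold of teratoma 2 over teratoma 3 (15-fold) above that of AFP (11.9-fold), and ALB had 15.3-fold.

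**Figure D3:**
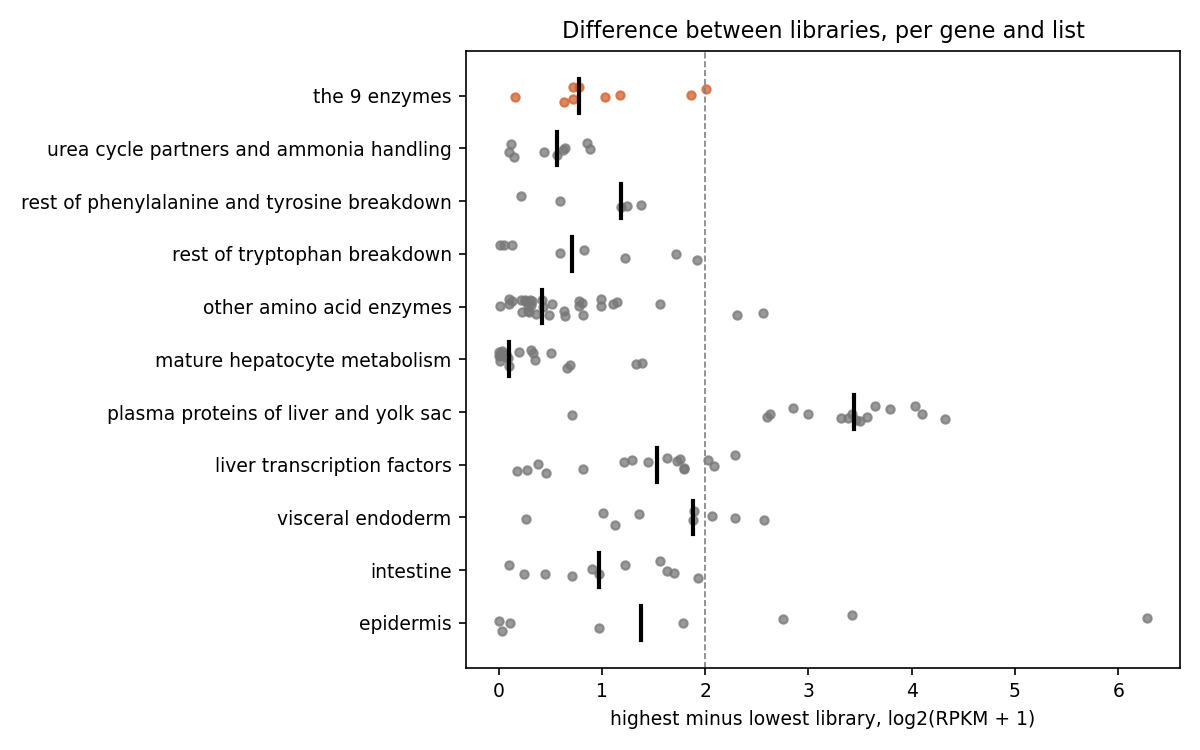
Difference between the highest and lowest library in log2(RPKM + 1), 1 point per gene and 1 row per list, with the median as a bar and 2 as a dashed line. The 9 enzymes (top row) had a median of 0.78 and the plasma proteins 3.44 on this scale, which compresses genes under 1 RPKM, and 2.20 and 3.58 with a pseudocount of 0.01.

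Set over albumin within each library, 7 of 9 enzymes were lowest in teratoma 2, and over AFP 6 of 9 were. ALB itself was 5.43-fold higher in teratoma 2 than in teratoma 1 and 15.3-fold higher than in teratoma 3. For AFP these folds were 4.18 and 11.9. Any gene with smaller folds than these comes out lowest in teratoma 2, so the counts largely reflect ALB and AFP. The share over all genes was not computed. ASL came to 78%, 16.1% and 133% of the ALB level in teratomas 1, 2 and 3, CPS1 to 55.6%, 20.1% and 66.6%, and FAH to 31.7%, 6.33% and 34.8%. HPD came to 3.06%, 6.61% and 6.74% and ARG1 to 1.41%, 1.46% and 3.83%, and both were lowest in teratoma 1. OTC came to 2.76%, 1.34% and 2.74%. TAT came to 0.274%, 0.242% and 2.05%, on the few reads given above.

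**Figure D4:**
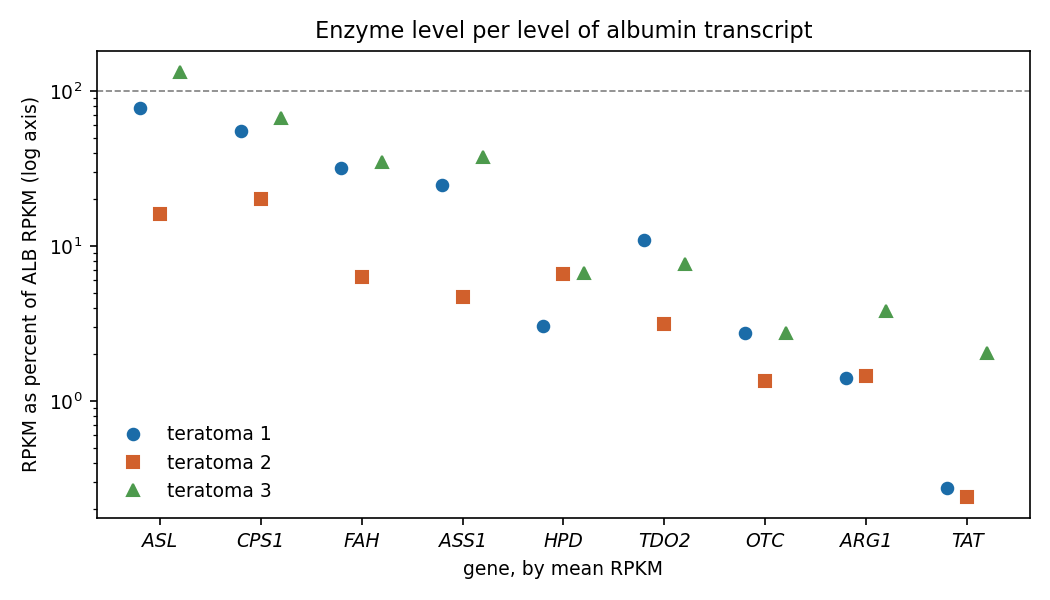
RPKM of each enzyme as a percent of the ALB RPKM in the same library, on a log axis, with symbols for the 3 teratoma libraries and a dashed line at 100%. Teratoma 2 (squares), where ALB itself was highest, was lowest for 7 of the 9 enzymes, and HPD and ARG1 were lowest in teratoma 1.

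Lists of other cell types differed between the libraries in several ways, and their part in the enzyme levels was not tested. Liver transcription factors were detected in 13 of 16 cases and summed to 199, 198 and 67.1 RPKM. FOXA1, FOXA2 and CEBPA led, and HHEX varied most, with 14 of 16 lowest in teratoma 3, 8 of 16 highest in teratoma 1 and 6 of 16 highest in teratoma 2. Visceral endoderm genes, led by GATA6, GATA4 and SOX17, with AMN the most variable, summed to 93.1, 113 and 26.3 RPKM, and 6 of 9 were highest in teratoma 2. Intestine genes, led by CDX2, VIL1 and CDH17, summed to 81.1, 86.6 and 24.8 RPKM, with 9 of 11 highest in teratoma 2 and 11 of 11 lowest in teratoma 3. MUC2, the mucin of goblet cells, stood at 0.213, 0.228 and 0.0345 RPKM. Bile duct genes, led by KRT19, EPCAM and SOX9, summed to 401, 414 and 130 RPKM, and 1 of 5 was highest in teratoma 2.

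Summed transcript of epidermis genes was also highest in teratoma 2. The genes, led by KRT10, KRT1 and KRT5, summed to 14.8, 216 and 44 RPKM, and 6 of the 7 with a read were highest there, with KRT2 at 0 in all libraries and FLG and IVL under 0.1 RPKM. LOR, loricrin of the cornified layer, was highest in teratoma 3, at 0.0176, 0.284 and 0.989 RPKM. Skin keratinocytes also make ARG1. Myeloid genes summed to 13.6, 22.9 and 8.17 RPKM, with 4 of the 6 with a read highest in teratoma 2, CD68, S100A9 and S100A8 leading and ELANE at 0. S100A8, a neutrophil protein that keratinocytes make too, varied most, at 0.0981, 5.35 and 2.29 RPKM. Kidney tubule genes, led by GATM, DPEP1 and SLC5A2, summed to 113, 73.9 and 30.6 RPKM, with SLC34A1 at 0, 11 and 0 reads. MUC2, KRT2, LOR, FLG, IVL, ELANE and SLC34A1 were named after their values were seen. Pancreatic acinar genes, led by CEL, CPA1 and PRSS1, summed to 612, 156 and 34.2 RPKM, and none was highest in teratoma 2. Neuron genes, led by TUBB3, STMN2 and GAP43, with NEFL the most variable, were highest in teratoma 3 for 5 of 5, with sums of 662, 815 and 2185 RPKM.

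The genes whose 3 values lay nearest to an enzyme's were sought among those with a mean of at least 5 RPKM, by root mean square distance of centred log2(RPKM + 1) values over the 3 libraries. For CPS1 they were the alpha globin HBA1 (distance 0.015) and the endoderm factor SOX17 (0.017), at 9, 17.8 and 4.07 RPKM. HBA1 has a near-identical copy, so its reads are uncertain. For HPD they were IGSF1 (0.099) and SLC13A5, a citrate transporter of liver (0.14), which stood at 2.83, 15.6 and 2.27 RPKM. For the others they were KLHDC8B and CTSL (ASL), OSTC and PXN (FAH), NOP14 and ANXA7 (ASS1), SCARB1 and PRR13 (TDO2), ITGA3 and DGAT1 (OTC), PDPN and PCYT2 (ARG1), and IPO7 and MPHOSPH6 (TAT). With a pseudocount of 0.1 none of these 18 genes stayed among the nearest, so the names describe this scale only. By median distance to a list, over its genes averaging 1 RPKM or more, HPD lay nearest to epidermis (0.522, 4 genes). Myeloid genes (0.648), plasma proteins (0.671) and the other enzymes of the 9 (0.742) followed. CPS1 lay nearest to intestine (0.342) and visceral endoderm (0.358), with plasma proteins at 0.723. Whether these orders hold at another pseudocount, and which cells made the transcripts, was not tested. Among the enzymes themselves, ASL and ASS1 were the closest of the 36 pairs (0.063), also with a pseudocount of 0.1 (0.063) and of 0.01 (0.073). No other order among the pairs is given, since it moved with the pseudocount: OTC and ARG1, second at a pseudocount of 1 (0.11), ranked 9 at 0.1 (0.41).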

How the data were processed

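RNA-seq of polyadenylated RNA from 3 teratoma libraries was deposited as 1 table per library. Libraries were made with a NEBNext Ultra II kit, per the labels' protocols, and Bowtie2 and hg19 are named in the submitters' processing notes. No source used here gives the counting tool, filters, strand setting or removal of mouse reads, so overlapping antisense transcripts cannot be told apart. RPKM was used as deposited by the authors, and the total behind it is 1 number per library. The deposited counts are raw reads per RefSeq transcript, and RPKM recomputed from them matched within 0.000499%. The length and placement columns were used as deposited. Reads shared by entries of a gene are counted for each.

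The entry with the highest mean RPKM stood for each of 27307 symbols. The 9 enzymes, the 15 other lists, thresholds and tests were chosen with earlier results of these data known. Named were all enzymes, all genes of the 3 partner lists, the 3 highest and the most variable gene of each other list, AFP, ALB and, per enzyme, the 2 nearest genes by centred profile. Some genes that this rule names are not reported here. Poisson and Clopper-Pearson intervals at 95% and sign-flip tests used Python 3.11.15, numpy 2.4.6, pandas 2.3.3 and scipy 1.17.1, with figures from matplotlib 3.10.9. With 1 group no model between groups was fitted. The code was tested on simulated data. At a length of 1647 bases (OTC) 3 reads equal 0.0394, 0.0398 and 0.0418 RPKM in teratomas 1, 2 and 3. Alternatives covered detection level, pseudocount, size of difference, low-value filter, entries, scaling and each library left out.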

Additional observations from a re-analysis of the deposited data

How the results depend on the processing

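The count of enzymes highest in teratoma 2 and the sign of the enzymes minus plasma proteins kept their direction in all alternatives run. For the count highest in teratoma 2, for the pathway counts, for the median difference of enzymes and plasma proteins and for distances between enzymes, the alternatives were chosen after seeing the data. Detected enzymes numbered 8 at 0.1 RPKM and 1 at 5 RPKM, in place of 4, and 4 to 5 with a library left out. Detected pathway genes numbered 19 at 5 RPKM, in place of 30. Enzymes differing by 2 or more, 1 as reported, numbered 4 and 5 with pseudocounts of 0.1 and 0.01 (CPS1, TDO2 and OTC added, then ARG1), and 4 at a difference of 1 and 0 at 3. They numbered 2 with entries summed or with rescaling to 1000000 per library (CPS1 added), and 0 with the mean over entries or median-of-ratios scaling, where HPD came to 1.89 and 1.98. With a library left out they numbered 0 to 1, with 0 without teratoma 2 or without teratoma 3, where HPD came to 0.08 and 1.92. All genes differing that far numbered 416, 1704 and 4162 with pseudocounts of 1, 0.1 and 0.01, and 946 after rescaling. Enzymes lowest in teratoma 3 numbered 7 in place of 8 under both scalings. Neighbouring pairs in the same order numbered 3 to 5 with a library left out, 5 being without teratoma 2. Enzymes minus plasma proteins came to -5.13 with a pseudocount of 0.01, and to -4.4 to -3.52 with a library left out. Of the 18 nearest genes 0, 1 and 10 stayed with a pseudocount of 0.1, with rescaling and with median-of-ratios scaling. Rescaling raised the median detected gene by 1.64, 1.69 and 1.74 on the log2 scale in teratomas 1, 2 and 3. Where no reason is given, the cause was not tested. No paired analysis was possible because all libraries form 1 group. Values on under 20 reads, as for TAT, are limited by depth.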
